A study of Mus musculus with 2 samples.

Results

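S0-medium cells are fetal liver cells of the mouse with little of the late erythroid antigen Ter119 on their surface and an intermediate amount of CD71. They were chosen by measured values, namely by the counts of 7 antibodies in each cell. A cell was kept with 300 to 5000 detected genes and at most 9% mitochondrial UMIs (unique molecular identifiers, each a count of 1 captured RNA molecule). It was then called S0-medium with a summed count of at most 95 for 5 antibodies against other lineages, a Ter119 count of at most 24 and a CD71 count of 234 to 762. These rules found 1058 cells of 7863 in the matrix, which were 14.4% of the 7355 kept cells and 33.2% of the 3191 lineage-low cells with low Ter119. Cells with less CD71 were called S0-low (1516 cells) and cells with more were called S1 (617 cells). Cells with a CD71 count of at least 763 and more Ter119 were called S2-like (1317 cells, Ter119 counts of 25 to 88) and S3-like (867 cells, at least 89).

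All cells came from livers of pooled C57BL/6 embryos of age e13.5 (days of embryonic development). Cells carrying Ter119 were partly removed and some were then added back, so the shares of the populations are set by the preparation and are not those of the liver. The method was CITE-seq, in which antibodies carry a DNA tag and are counted in the same droplet as the cell's RNA, and all 7863 barcodes were in both the cDNA library and the antibody library. With 1 library of each kind there was no replicate, no difference here has a replicate check, and no test was made. Intervals are 95% intervals for counting error only.

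Red cells form in the fetal liver from progenitors that first depend on the receptor Kit and its ligand stem cell factor, and later on the erythropoietin receptor. Along this path the progenitors stop expressing stem and myeloid genes, divide rapidly, take up iron through the transferrin receptor CD71, and switch on the genes for heme, globin and the red cell membrane. Ter119 appears on the surface late, when the cells are recognizable erythroblasts. The colony-forming unit erythroid (CFU-E) stage lies in the middle, where Kit is falling and CD71 is rising.

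The tags of CD71, Ter119, cKit, CD44 and the control antibody are shown because the surface values given one by one below are counts of these sequences. The tags of the 5 lineage antibodies, which enter the gate and the totals only, are not shown. Each is written 5′ to 3′ as listed for the study, and the capitals mark the whole tag of 12 bases.
CD71 (sets the gate): CGAAGAAGGAGT
Ter119 (sets the gate): GAGGCGATTGAT
cKit (not used by the gate): AAGCGCTTGGCA
CD44 (not used by the gate): GTCTAGACTTCG
IgG (control antibody): CGGAGTAGTAAT
The nearest pair among all tags was CD71 and IgG, which differed at 4 bases. Sequences that matched no tag made up 1.08% of the 1013831 antibody counts in S0-medium cells.

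The 2 surface proteins that the gate did not use were both present on S0-medium cells. The cKit antibody had a median count of 218, with a 5th percentile of 12 and a 95th percentile of 722, against medians of 256.5 in S0-low and 92 in S1. These populations overlapped widely, and cKit varied far more among S0-medium cells than its median differed from that of S0-low. Among cells below 8000 UMIs the S0-medium median was 66. It lay relatively further below that of S0-low, by the ratio given in the closing section. The adhesion receptor CD44 had a median count of 183 in S0-medium, 151 in S0-low and 210 in S1. Total antibody counts were also higher with CD71, with medians of 551 in S0-low, 915 in S0-medium and then 1599 in S1, and CD71 itself is part of that total. As a share of each cell's antibody counts, CD44 had medians of 25.7%, 19.7% and 13.0% over the sequence from S0-low to S1, so its order turned around. CD71, on which the gate was set, made median shares of 13.47%, 49.7% and 77.5% of the same counts. The CD44 order between S0-low and S0-medium also turned among cells of at least 8000 UMIs, with medians of 254 and 230, and among cells below 8000 UMIs, with medians of 111 and 100. The share for cKit kept the order of its counts, with medians of 48.1%, 24.5% and 5.81%. By the rule itself, CD71 medians were 69.5 in S0-low, 429 in S0-medium and then 1150 in S1, and the S0-medium median for Ter119 was 8.

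**Figure D1:**
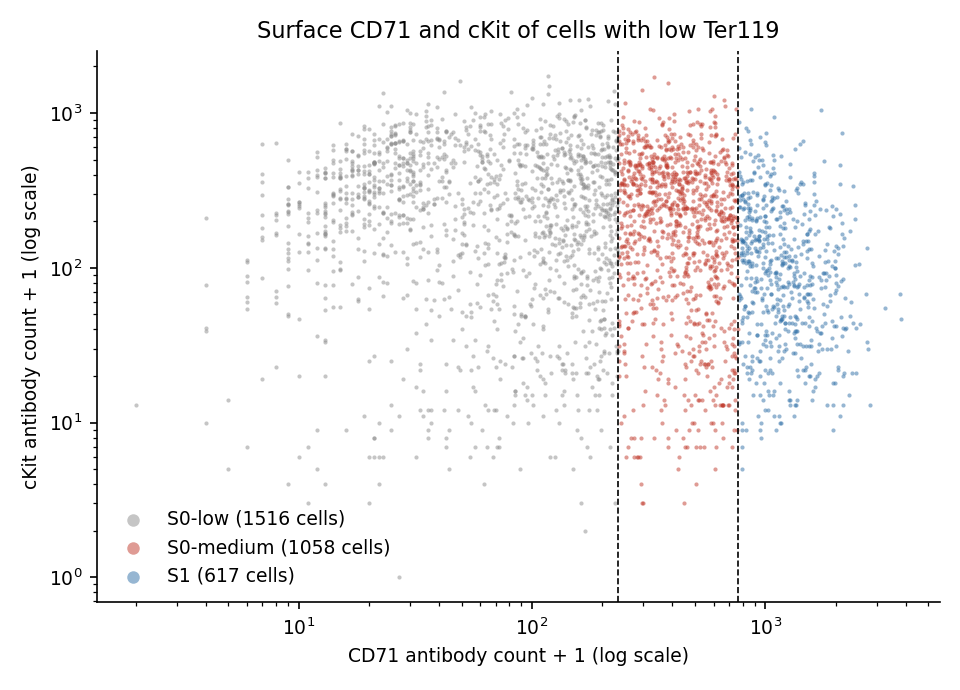
Each point is 1 cell with low Ter119, by its CD71 antibody count plus 1 (horizontal, log scale) and its cKit antibody count plus 1 (vertical, log scale). Dashed lines mark the CD71 borders of S0-medium (red, 1058 cells) against S0-low (grey, 1516 cells) and S1 (blue, 617 cells). The S0-medium cells spread over the cKit range, with a median of 218.

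The CD71 borders cross a continuous distribution, and the cells within 10% of each border are described once. The 92 cells just outside the lower border, with CD71 counts of 211 to 233, had a median cKit count of 233 and a mean *Kit* level of 49.7 CPM. The 90 cells just inside it, with CD71 counts of 234 to 257, had a median cKit count of 227 and 41.0 CPM. At the upper border the 97 cells just inside (687 to 761) had a median cKit count of 165 and 24.8 CPM of *Kit*. The 73 cells just outside (769 to 838) had a median cKit count of 134 and 8.12 CPM.

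Transcript levels are given as the mean over cells of UMIs per 1000000 UMIs of the cell (CPM). Counts come from the 3′ ends of transcripts and are compared here between populations for 1 gene at a time, not between genes. S0-medium cells held 10915589 UMIs, with a median of 10280 per cell (quartiles 5320 and 14348) and 3001 detected genes. The medians were 6162 UMIs and 2257.5 genes in S0-low, and 10160 UMIs and 2868 genes in S1. After each cell was thinned to 2500 UMIs, the medians of detected genes were 1267 in S0-low, 1258 in S0-medium and then 1204 in S1. No cell was too shallow for this thinning. Median mitochondrial shares were 4.41%, 4.64% and 5.05% in the same order.

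The 4 marker transcripts named for these cells were all detected. They were detected in S0-low and S1 too, so detection alone does not set S0-medium apart. *Kit* (chromosome 5, 75574987 to 75656722, in the RefSeq annotation of GRCm38.p6, the assembly also called mm10) encodes the stem cell factor receptor. Its level was 62.3 CPM in S0-low, 28.5 CPM in S0-medium (25.4 to 32.3), 7.93 CPM in S1 and 3.16 CPM in S2-like cells. *Tfrc* (chromosome 16, 32608896 to 32632794) encodes CD71, the protein the gate was set on. Its level was 95.4 CPM in S0-low, 191 CPM in S0-medium (181 to 202), 250 CPM in S1 and 332 CPM in S2-like cells, so the transcript followed the order of the antibody. The *Kit* ratio of S0-medium to S0-low was 0.457 (0.396 to 0.528), with 0.236 among cells below 8000 UMIs, 0.611 among cells of at least 8000 UMIs and 0.737 in UMIs per cell. For both transcripts S0-medium lay between its neighbours.

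The other 2 markers had another shape. *Fam132a* (also called *C1qtnf12*, chromosome 4, 155962312 to 155966629) encodes a secreted protein with a C1q domain. It was at 143 CPM in S0-low, 255 CPM in S0-medium (244 to 266), 198 CPM in S1, 75.2 CPM in S2-like and 28.7 CPM in S3-like cells. S0-medium was the highest of the 5 populations for mean *Fam132a*, 1.78 times S0-low (1.66 to 1.91), while S1 was 0.778 times S0-medium (0.723 to 0.838). The S0-low cells just outside the lower CD71 border were at 294 CPM and the S0-medium cells just inside it at 271 CPM, so high *Fam132a* did not begin at the border. *Hesx1* (chromosome 14, 26994419 to 27002329) encodes a homeobox repressor known from forebrain and pituitary development. It was at 28.8 CPM in S0-low, 58.3 CPM in S0-medium (53.3 to 64.0), 61.7 CPM in S1, 25.1 CPM in S2-like and 8.46 CPM in S3-like cells. The ratio of S1 to S0-medium for *Hesx1* was 1.06 (0.916 to 1.22), an interval that spans 1, so no difference was detectable at this depth.

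Free RNA in the droplets can add UMIs of a gene to any cell, and the 194 cells of a hepatocyte-like cluster served as the background. After thinning to 2500 UMIs, 5.67% of S0-medium cells had a *Kit* UMI (4.36% to 7.24%, exact binomial interval), and 0 of 194 hepatocyte-like cells did, which allows a share of up to 1.55% by a limit of 3 counts. The thinned shares in S0-medium and in hepatocyte-like cells were 35.8% and 10.3% for *Tfrc*, 44.7% and 5.15% for *Fam132a*, and 13.6% and 1.55% for *Hesx1*. Each share was thus above its background. Without thinning, 25.2% of S0-medium cells had a *Kit* UMI, 75.3% a *Tfrc* UMI, 77.2% a *Fam132a* UMI and 40.3% a *Hesx1* UMI.

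**Figure D2:**
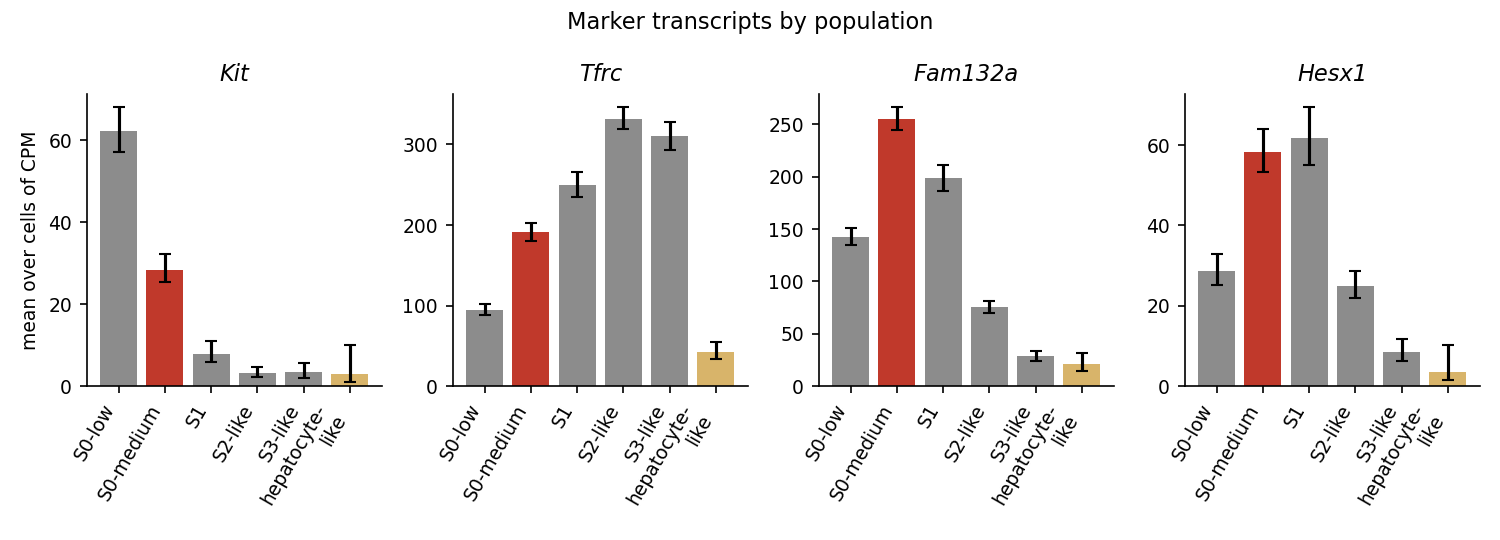
Bars give the mean over cells of CPM for *Kit*, *Tfrc*, *Fam132a* and *Hesx1* (1 panel each, vertical axis from 0), with 95% intervals for counting error. They cover 5 populations gated by antibody counts and the hepatocyte-like cells. These share cells, since 111 hepatocyte-like cells lie in S0-low. *Kit* is at 62.3, 28.5 and 7.93 CPM over S0-low, S0-medium and S1, and *Fam132a* is highest in S0-medium at 255 CPM.

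The first comparison asked how S0-medium differs from the earlier cells of the same low-Ter119 compartment. Genes were compared by size only. A gene counted as apart when its CPM plus 10 differed at least 2-fold, among 9842 genes with at least 50 UMIs in the 2 populations. In S0-medium 63 genes were higher (0.64% of those compared) and 417 were lower (4.24%), and the median log2 ratio of all compared genes was -0.05. *Hemgn*, which encodes a nuclear protein of erythroid cells, was at 80.9 CPM in S0-low and 288 CPM in S0-medium, with a ratio of 3.56 (3.24 to 3.92). *Trim10*, a RING finger gene needed for terminal erythroid differentiation, was at 40.9 and 152 CPM, a ratio of 3.72 (3.23 to 4.29). The erythroid long noncoding RNA *Redrum* had a ratio of 3.76 (3.04 to 4.68). The 15 genes with the largest differences in log2 of CPM plus 10 also held *Acp5*, *Ift140*, *Rhd*, *Cldn13*, *Slc4a1*, *Cd24a*, *Mrap* and *Rgcc*.

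Of the genes on fixed lists, 13 of 18 early progenitor genes, 7 of 9 myeloid markers and 10 of 10 hepatocyte markers were lower. Over all compared genes 4.24% were lower. *Plac8*, a gene of early progenitors and myeloid cells, was at 462 CPM in S0-low and 19.1 CPM in S0-medium, 24.2-fold lower (20.4 to 29.0). As a ratio this was 0.0413. It was 0.0935 when antibody counts were scaled by the centered log ratio within each cell and the gates redrawn at the same sizes. *Ramp1*, which encodes a receptor activity-modifying protein, was at 139 and 4.70 CPM, and the imprinted noncoding RNA *Meg3* was at 236 and 14.6 CPM. The granule genes *Prtn3* and *Mpo* were at 256 and 201 CPM in S0-low and at 11.8 and 12.9 CPM in S0-medium.

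Part of this drop was carried by other cells within the S0-low gate. Of S0-low cells 111 lay in the hepatocyte-like cluster, against 5 S0-medium cells and 4 S1 cells. The albumin transcript *Alb* was at 1442 CPM in S0-low and 116 CPM in S0-medium. Without hepatocyte-like cells it was at 54.0 CPM in S0-low, 56.3 CPM in S0-medium and then 56.5 CPM in S1, so the difference was not seen. *Afp*, encoding α-fetoprotein, went from 2333 and 194 CPM to 87.1 and 90.2 CPM in the same way. Leaving out all cells of named non-erythroid clusters, which were 123 in S0-low and 5 in S0-medium, left 287 genes lower and 52 higher. Of the 417 lower genes 276 were still past the fold, and of the 63 higher genes 51 were.

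Among the genes of early progenitors, 13 of 18 with enough UMIs were lower in S0-medium, none was higher, and the median log2 ratio was -1.23. The values over all genes were 4.24%, 0.64% and -0.05. The same 13 of 18 count was found without the named non-erythroid clusters, beside 287 of 9428 genes lower. Unnamed clusters stayed in, among them cluster 7, with *Cd34* and *Plac8* in its top 10 genes (292 S0-low and 6 S0-medium cells). Cluster 13, with *Lyz2* in its top 10 genes (64 and 1 cells), stayed in too. The part of these clusters in the lower levels was not tested. *Cd34*, the classic antigen of stem and progenitor cells, was at 84.5 CPM in S0-low and 1.81 CPM in S0-medium, 46.7-fold lower (28.8 to 81.3). *Spi1*, which encodes the myeloid master regulator PU.1, was at 87.3 and 6.96 CPM. *Gata2*, the GATA factor that GATA1 replaces as erythroid cells mature, was at 39.7 and 2.74 CPM. *Ikzf1*, the lymphoid and erythroid regulator Ikaros, was the exception at 111 CPM in S0-low and 120 CPM in S0-medium. The DNA methyltransferases *Dnmt3a* and *Dnmt3b* were also lower, from 34.7 to 10.0 CPM and from 64.8 to 15.8 CPM.

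Of 20 erythroid transcription factors 1 was higher and none was lower, beside 0.64% and 4.24% over all genes, and their median log2 ratio was 0.20. The one past the fold was *Sox6*, a repressor of embryonic globin, at 6.76 CPM in S0-low, 27.7 CPM in S0-medium and then 55.8 CPM in S1. *Klf1*, the activator of adult β-globin, was at 258, 526 and 637 CPM in the same order. *Gata1*, the principal erythroid GATA factor, was at 125, 194 and 201 CPM, and *Cbfa2t3*, a corepressor in the TAL1 complex, went the other way at 75.9, 36.6 and 23.1 CPM. The erythropoietin receptor transcript *Epor* was at 78.5 CPM in S0-low, 141 CPM in S0-medium and then 155 CPM in S1. Among 23 genes of cytokine receptors and their signalling, 1 was higher (*Cd24a*), 2 were lower, and the median log2 ratio was -0.24.

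Heme synthesis, iron handling and the red cell membrane were counted in the same way. Of 9 heme synthesis genes 4 were past the fold upwards, beside 0.64% over all genes. A ratio above 1 was seen for 8 (41.2% over all genes), and the median log2 ratio was 0.97 against -0.05 over all genes. Among cells with at least 8000 UMIs 2 of the 9 were past the fold upwards, beside 49 of 9194 genes. Among cells below 6 were, with 1 downwards, beside 114 and 487 of 7782 genes. *Alas2*, the erythroid enzyme of the first step, was at 30.8 CPM in S0-low and 80.3 CPM in S0-medium, with a ratio of 2.61 (2.18 to 3.13). *Alas1*, the form of the same enzyme used outside red cells, was the member that went down, from 17.7 to 4.16 CPM, 4.26-fold lower (3.07 to 6.01). *Fech*, the enzyme that puts iron into heme, was at 196 and 459 CPM. Of 13 genes of iron uptake and storage 1 was past the fold upwards, beside 0.64% over all genes, with a median log2 ratio of 0.43. This was *Slc25a37*, mitoferrin, the carrier of iron into mitochondria, and 10 of 13 had a ratio above 1. Among cells with at least 8000 UMIs none of the 13 was past the fold, beside 49 higher and 382 lower of 9194 genes.

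Of 20 genes of the red cell membrane and its skeleton 11 were past the fold upwards and none downwards, beside 0.64% and 4.24% over all genes. The median log2 ratio of these 20 genes was 1.07, against -0.05 over all genes. *Slc4a1*, which encodes the anion exchanger band 3, was at 14.1 CPM in S0-low and 58.9 CPM in S0-medium, with a ratio of 4.18 (3.30 to 5.33). The *Slc4a1* ratio was 2.05 among cells with at least 8000 UMIs and 7.09 among cells below. *Rhd*, encoding the Rh antigen, was at 86.0 and 268 CPM. Of 20 CFU-E and early erythroid genes 4 were higher, 1 was lower and 16 had a ratio above 1, beside 0.64%, 4.24% and 41.2% over all genes. Among cells with at least 8000 UMIs 7 of 19 were higher and 1 was lower, beside 49 and 382 of 9194 genes. Among cells below 7 of 19 were higher and 2 were lower, beside 114 and 487 of 7782 genes.

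The globins need their background beside them, since free globin RNA is in every droplet. *Hba-a1* and *Hba-a2* are nearly identical copies, so their counts were summed. Summed α-globin averaged 5920 CPM over S0-medium cells, with the median at 2575 CPM (quartiles 2017 and 3694). It averaged 2596 CPM over the 641 S0-medium cells of at least 8000 UMIs and 11029 CPM over the 417 below. The median was 1991 CPM in S0-low, 1982 CPM in hepatocyte-like cells and 5325 CPM in S1. The mean of S0-medium lay above its upper quartile, and its lower quartile was close to the hepatocyte-like median. Summed adult β-globin, which also has near-identical copies, had medians of 6869 CPM in S0-medium, 5934 CPM in hepatocyte-like cells and 13514 CPM in S1.

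**Figure D3:**
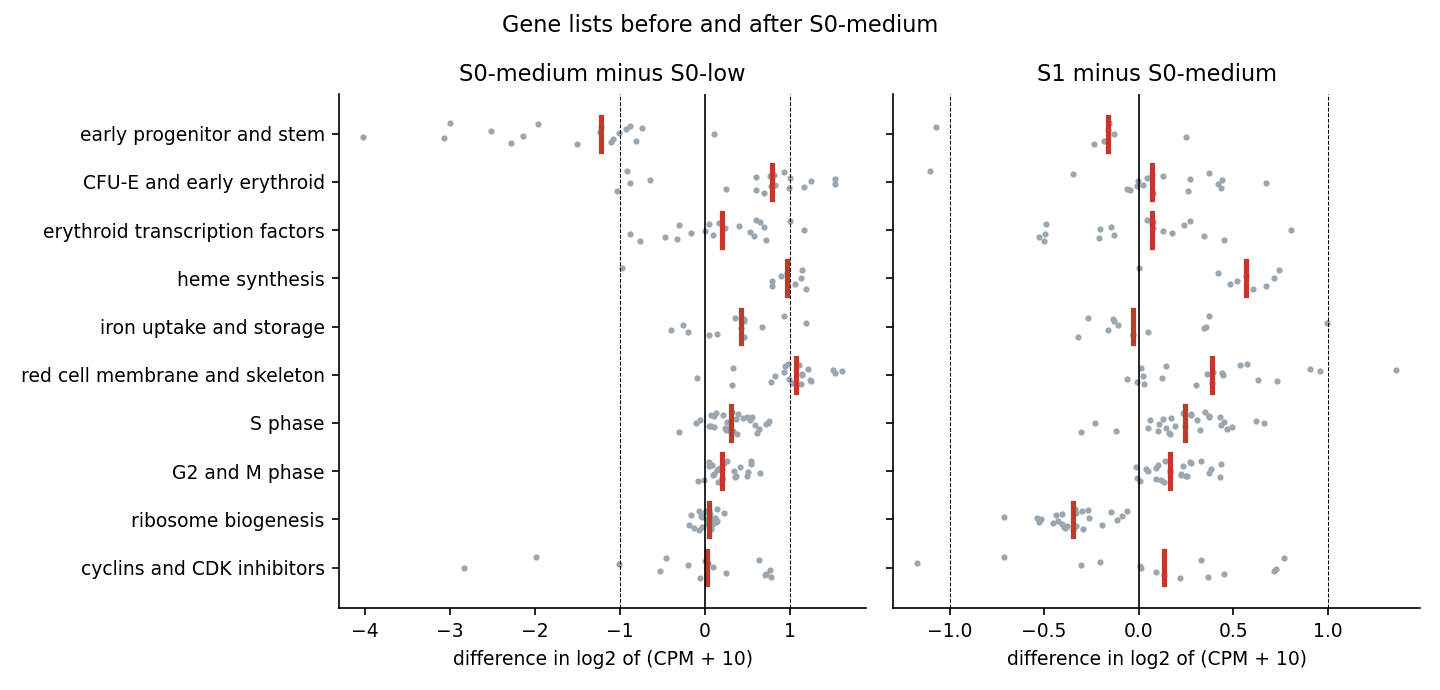
Each grey point is 1 gene with at least 50 UMIs in the 2 populations compared, placed by its difference in log2 of CPM plus 10, for S0-medium minus S0-low (left) and S1 minus S0-medium (right), and each red bar is the median of its list. Dashed lines mark 2-fold. Early progenitor genes lie to the left in the first comparison (median -1.23), membrane genes to the right (median 1.07), and ribosome biogenesis genes lie to the left in the second (median -0.35).

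Of 30 S phase genes none was past the fold, beside 0.64% higher and 4.24% lower over all genes. A ratio above 1 was seen for 27, beside 41.2% over all genes, and the median log2 ratio was 0.31. *Rrm2*, a subunit of ribonucleotide reductase, was at 330 CPM in S0-low, 566 CPM in S0-medium and then 874 CPM in S1. *Hells*, a chromatin remodeller, had the lowest S0-medium to S0-low ratio of the list and was at 111, 88.9 and 70.2 CPM. Of 25 G2 and M phase genes none was past the fold and 23 had a ratio above 1, with a median of 0.20. Among cells with at least 8000 UMIs 17 of 25 had, with a median of 0.10, beside 48.4% of all genes. After thinning, S phase genes took a median of 0.44% of UMIs in S0-low cells, 0.6% in S0-medium, 0.76% in S1 and 0.8% in S2-like cells. The unthinned medians of the first 3 were 0.456%, 0.608% and 0.742%. G2 and M phase genes took 0.4%, 0.48% and 0.52% after thinning in the same 3 populations. No cell was called cycling from these shares.

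The cyclin genes went in different directions. The D-type cyclins pair with CDK4 and CDK6 to start the cell cycle. *Ccnd1* was at 38.1 CPM in S0-low and 2.16 CPM in S0-medium. *Ccnd2* was at 190 CPM in S0-low, 136 CPM in S0-medium and then 79.0 CPM in S1. *Ccnd3* went the other way over the same cells at 192, 304 and 525 CPM. *Cdk6*, which encodes a kinase partner of these cyclins, was at 306, 147 and 59.5 CPM, and the CDK inhibitor gene *Cdkn2c* was at 12.7, 28.6 and 53.9 CPM.

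The second comparison asked what changes as cells leave S0-medium with rising CD71. It shares the S0-medium cells with the first comparison, so the 2 are not independent. Far fewer genes were apart. Of 8676 genes 6 were higher in S1 (0.0692%) and 8 were lower (0.0922%), with a median log2 ratio of -0.08. The 8 lower genes were *Gm15915*, *Cdk6*, *Kit*, *Ifngr1*, *Myb*, *Rab4a*, *Syngr2* and *Hdac7*. *Gm15915*, a predicted gene, was at 76.0 CPM in S0-medium and then 21.6 CPM in S1, 3.51-fold lower (2.91 to 4.28). *Myb*, a transcription factor of proliferating progenitors, was at 57.9 and 22.3 CPM, 2.59-fold lower (2.15 to 3.16). *Ifngr1*, which encodes the interferon gamma receptor, was at 56.0 and 21.1 CPM. *Kit* was 3.59-fold lower (2.68 to 4.90), and *Hdac7*, a class IIa histone deacetylase gene, was at 27.2 and 8.14 CPM.

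The 6 genes that were higher in S1 were *Slc4a1*, *Apol8*, *Sgk3*, *Btg2*, *Hbb-y* and *Hba-x*. *Slc4a1* was at 58.9 CPM in S0-medium and then 167 CPM in S1, a ratio of 2.83 (2.44 to 3.29), which was 5.65 among cells with at least 8000 UMIs. *Apol8*, an apolipoprotein L family gene, was at 20.3 and 63.1 CPM. *Btg2*, an antiproliferative gene, was at 53.8 and 121 CPM. The embryonic globins *Hbb-y* and *Hba-x* rested on 1 cell. A single S1 cell of a primitive erythroid-like cluster held 2300 of the 3213 *Hbb-y* UMIs and 218 of the 271 *Hba-x* UMIs in S1. Without it *Hbb-y* was at 153 CPM in S1 against 155 CPM in S0-medium, and *Hba-x* was at 11.4 against 7.98 CPM.

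None of the 9 heme synthesis genes and none of the 25 ribosome biogenesis genes was past the fold between S0-medium and S1. Over all genes 0.0692% were higher and 0.0922% were lower. All 9 heme genes had an S1 to S0-medium ratio above 1, beside 33.7% over all genes, with a median log2 ratio of 0.57. Of 20 membrane genes 18 had a ratio above 1, with a median of 0.39. None of the 25 ribosome biogenesis genes had a ratio above 1, with a median of -0.35, whereas between S0-low and S0-medium 16 of 25 had, with a median of 0.05, beside 41.2% of all genes. Among cells below 8000 UMIs 2 of 25 had a ratio above 1 between S0-low and S0-medium, with a median of -0.19, beside 37.6% of all genes and a median of -0.10. Their summed level was 10519 CPM in S0-low, 10955 CPM in S0-medium and then 8751 CPM in S1. *Rrp9*, a processing factor of ribosomal RNA, was at 71.1, 69.4 and 38.5 CPM. *Myc*, the transcription factor that drives ribosome production, was at 145, 104 and 58.4 CPM.

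**Figure D4:**
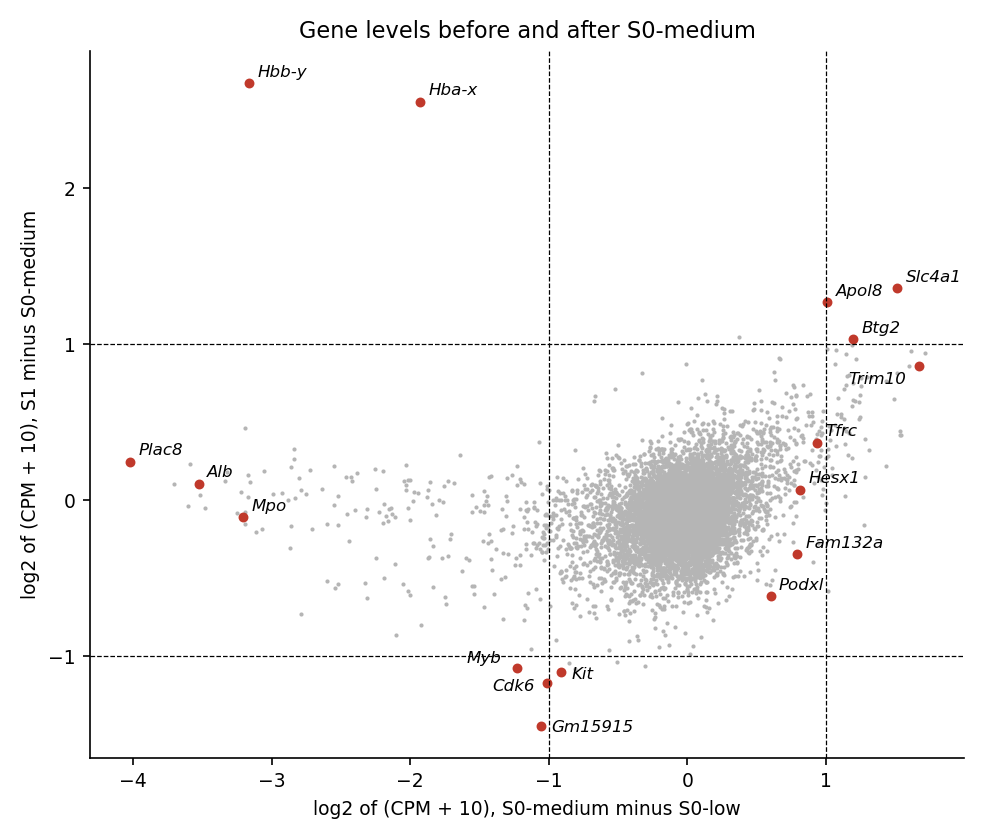
Each point is 1 of 8657 genes with at least 50 UMIs in both comparisons, by its difference in log2 of CPM plus 10 between S0-medium and S0-low (horizontal) and between S1 and S0-medium (vertical). The axes share the S0-medium values, so the positions on them are not independent. Dashed lines mark 2-fold, *Plac8* and *Alb* lie far left near the horizontal zero line, and *Hbb-y* and *Hba-x* at the top rest on 1 S1 cell.

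A gene particular to S0-medium was looked for with a lower bar. A gene counted as highest when its CPM plus 10 was at least 1.5 times that of both neighbours. Of 10058 genes 1 met this (0.00994%). It was *Podxl*, which encodes the sialomucin podocalyxin, at 25.3 CPM in S0-low, 43.5 CPM in S0-medium and then 24.9 CPM in S1. *Podxl* met the bar under 3 of 11 other settings, which were globins left out of the denominator, doublets removed and cells near a CD71 border left out. It did not under the other 8. *Sphk1* met the bar with doublets removed too, and in pooled CPM, in UMIs per cell, after thinning and among cells below 8000 UMIs. The 11 settings do not include the pseudocount of 1 CPM, which is given in the closing section.

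Genes whose levels followed *Hesx1* and *Fam132a* were sought over 19 clusters of all kept cells, as a description, since the clusters share 1 library. Nearest to *Hesx1* was *Asb17* with a Pearson correlation of 0.98, at 25.7 CPM in S0-low, 50.6 CPM in S0-medium and then 40.3 CPM in S1. It was followed by *Arhgdig* (0.97), *Minpp1* (0.96), *Fam132a* (0.95) and *Meiob* (0.95). Nearest to *Fam132a* were *Lpin1*, *Minpp1*, *Pla2g12a*, *Prss50* and *Nudt19*, each at 0.97.

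Other cell types left little signal in S0-medium. The 10 hepatocyte markers summed to 557 CPM, against 6925 CPM in S0-low, with *Afp* the most abundant at 194 CPM. The 10 myeloid markers summed to 78.8 CPM against 746 CPM, with *S100a9* the most abundant at 15.1 CPM. The 8 macrophage markers summed to 9.86 CPM and the 11 megakaryocyte markers to 51.3 CPM, led by *C1qc* and *Pf4*. The 8 mast cell and basophil markers summed to 1.74 CPM with 4 at 0 UMIs, and the 6 stromal markers to 1.68 CPM. The 8 lymphoid markers summed to 24.5 CPM, of which *Ptprcap* made 22.6 CPM and 3 were at 0 UMIs, including *Cd3e*. A gene at 0 UMIs could have been at up to 0.275 CPM. The 6 endothelial markers summed to 135 CPM, nearly all of it *Egfl7* at 130 CPM. Among genes of the antibodies' targets, *Ptprc* (CD45) was at 20.7 CPM in S0-low and 1.47 CPM in S0-medium, and *Cd44* was at 63.0, 45.7 and 33.5 CPM over S0-low, S0-medium and S1. The part that other cell types have in the remaining signal was not tested.

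Within S0-medium some levels were graded along CD71. The cells were put into 5 groups of 211 or 212 by CD71 count, with CD71 medians from 262 to 677. The cKit antibody had medians of 254, 269.5, 239, 184 and 165 from the lowest to the highest group. *Kit* was at 36.3, 31.9, 32.5, 20.6 and 21.1 CPM, and the intervals of the lowest group (28.1 to 48.2) and the highest (15.6 to 30.3) overlapped. From the lowest to the highest group *Myb* went from 77.4 to 39.4 CPM, *Gm15915* from 107.7 to 46.7 CPM and *Cdk6* from 189.6 to 92.5 CPM. *Ccnd3* went from 227.6 to 389.6 CPM. *Fam132a* had no such order, at 261, 243, 273, 242 and 254 CPM. Summed S phase genes were at 5651, 5878, 6158, 6626 and 6796 CPM, and summed heme genes went from 2331 to 3268 CPM. The heme gene *Alas2* fell and then rose, at 98.4, 71.4, 54.4, 51.2 and 126 CPM. So did the mean of summed α-globin, at 6176, 4619, 4725, 5103 and 8985 CPM. The medians of summed α-globin were 2331, 2329, 2533, 2719 and 3013 CPM, with almost no fall before the rise. The median depth was 8530 UMIs in the lowest group and 10246 to 10786 in the others.

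The cKit antibody, which the gate did not use, separated S0-medium cells further. The 532 cells with a count of at least 218, the median, had 46.9 CPM of *Kit* and 151 CPM of *Tfrc*. The 526 cells below it had 9.88 and 232 CPM. These cells also differed in depth, with median UMIs of 13472.5 and 5615.5, and 87.8% against 33.1% had at least 8000 UMIs. Outside the hepatocyte-like cluster, 26 of 8091 genes (0.321%) were at least 2-fold higher in the cells with more cKit, and 59 (0.729%) were lower. Among cells with at least 8000 UMIs the counts were 11 of 7775 genes (0.141%) and 8 genes (0.103%). In these deeper cells *Kit* was at 45.98 CPM in the 467 cells with more cKit and at 14.3 CPM in the 172 cells with less, 3.22 times as high (2.19 to 4.90). *Gm15915* was at 119 and 41.8 CPM. *Trim10* was at 47.4 and 139 CPM. So the antibody and the *Kit* transcript ran together within this depth class, with *Trim10* in the opposite direction.

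Depth itself had 2 modes in S0-medium. A border of 8000 UMIs, chosen after the distribution was seen, put 641 cells above (median 13417 UMIs) and 417 cells below (median 4714 UMIs). The deeper cells had a median cKit count of 338 and CD44 count of 230, and the shallower cells 66 and 100. Of 8126 genes 64 were at least 2-fold higher in the shallower cells (0.788%) and 13 were lower (0.16%). Higher in the shallower cells were genes of late erythroid maturation, 9 of 12 on that list, among them *Alas2* at 170 against 22.03 CPM. The 25 ribosome biogenesis genes had a median log2 ratio of -0.47 in shallower over deeper cells, against -0.10 over all genes. *Ifngr1* was at 26.3 against 75.3 CPM.

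A few genes outside the erythroid lists were among those higher in the shallower cells, and they did so in the neighbouring populations too. These were named after their values were seen. *Actb*, which encodes β-actin, was at 6143 CPM in the shallower and 1817 CPM in the deeper S0-medium cells, a ratio of 3.38 (3.30 to 3.47). The same ratio was 3.66 in S0-low and 3.42 in S1. *Rpgrip1*, a gene known from photoreceptors, was at 524 against 92.6 CPM, and *Supt16*, which encodes a subunit of the histone chaperone FACT, was at 480 against 192 CPM. *Rpgrip1* (chromosome 14, 52104241 to 52161339) and *Supt16* (52160419 to 52197239) overlap, so counts of the one may belong to the other. With a limit of 2000 CPM, also chosen after the values were seen, 553 of 1058 S0-medium cells (52.3%) were above it for *Actb*. This was 93.3% of the shallower and 25.6% of the deeper cells, and 34 cells lay within 25% of the limit. Median cKit counts were 116 above the limit and 344 below it. They were 278.5 and 357 among the deeper cells. Among the shallower cells the order turned, at 70 above the limit and 37.5 below it, where 389 of the 417 cells were above it. Depth moved with these levels. The direction for cKit differed between the depth classes, but among the shallower cells it rests on the few cells below the limit. The part of depth and cKit in these levels was not tested.

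**Figure D5:**
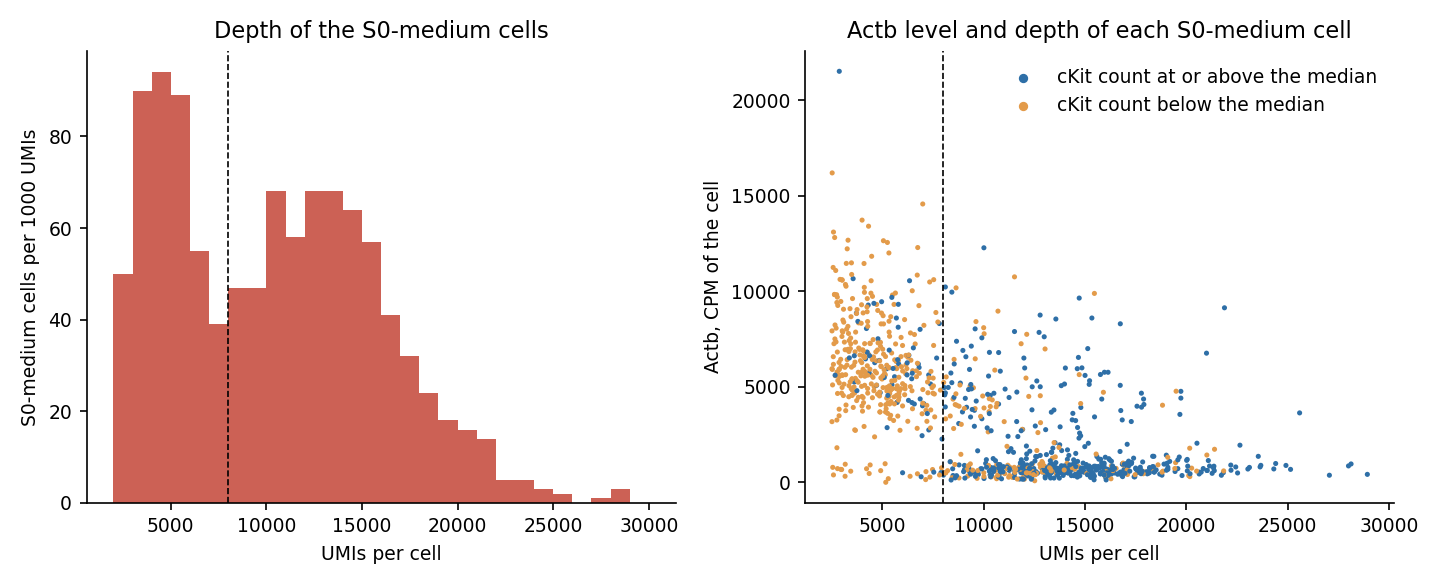
Left, the number of S0-medium cells in equal bins of depth (UMIs), with the dashed line at 8000 UMIs. Right, each S0-medium cell by its depth (horizontal, UMIs) and its *Actb* level (vertical, CPM), coloured by whether its cKit antibody count is at or above the median of 218 (blue) or below it (orange). The 417 shallower cells are mostly high in *Actb* and low in cKit, and 25.6% of the 641 deeper cells are above 2000 CPM.

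Clusters made from the RNA of all kept cells showed the same structure. Of the 19 clusters 5 held at least 100 S0-medium cells each and together 1017 of them (96.1%). None of the 5 could be given a cell type name from the marker lists. Their genes were used to make them and are described without a test. Cluster 10 (267 S0-medium cells) and cluster 5 (235 cells) were deep, with medians of 14331 and 13099 UMIs and median cKit counts of 444 and 202. Cluster 11 (220 cells) and cluster 4 (184 cells) were shallow, with medians of 6704.5 and 5739.5 UMIs and median cKit counts of 287 and 89.5. *Kit* was at 50.1 CPM in cluster 10 and 44.2 CPM in cluster 11, and at 20.2 and 8.63 CPM in clusters 5 and 4. *Actb* was at 998 and 1386 CPM in the deep clusters 10 and 5, and at 5697 and 5488 CPM in the shallow clusters 11 and 4. Cluster 3 (111 cells) had the lowest cKit median of the 5, at 22, with 1.59 CPM of *Kit*, 314 CPM of *Tfrc* and 9137 CPM of *Hba-a1*. S0-medium cells thus lay in RNA clusters with high and with low *Kit*, at both depths.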

How the data were processed

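Fetal liver cells of pooled embryos gave 1 cDNA and 1 antibody library. The authors mapped the cDNA reads to mm10 with Cell Ranger and deposited a matrix of UMI counts (genes by cells), unnormalized and before quality filters. Antibody reads were assigned with CITE-seq-Count, and the authors deposited the counts per antibody and cell. Seurat is also named in the submitters' processing notes. Whether antibody reads were collapsed by molecular identifier is not given in the sources used here.

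The members, gene lists and rules were chosen with earlier results of these data known. Gates stand in for those of the study, whose positions are not given in the sources used here. CPM is a cell's counts per 1000000 UMIs, averaged over cells. Intervals are gamma intervals for levels and conditional binomial intervals for ratios, at 95% and for counting error only. Ratios printed are of mean CPM, and log2 values are of CPM plus 10, which understates changes of low genes. Genes past 2-fold had at least 50 UMIs. Scripts recovered known changes well past 2-fold in simulated counts. The simulation held no changes near 2-fold and no differences among a population's cells other than depth.

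Named were the markers, list members that were extreme in their list, the 15 genes highest and lowest in each comparison, targets of the antibodies, and genes most like *Hesx1* and *Fam132a*. Other names were chosen after their values were seen. In the comparisons by cKit count and by depth, genes were drawn from those past the fold. Clusters used scanpy 1.11.5 (10000 counts per cell, 2000 variable genes, 16 components, 30 neighbours, Leiden resolution 0.8, seed 7), and clusters were named from at least 3 markers in their top 10 genes. Doublets were called by the Scrublet method at an expected 6% (128 cells, 1.63%, with 4 in S0-medium) and were kept, and removed as an alternative. Of the list symbols 1 was not matched. Sequence coordinates are from RefSeq. A gene among those past the fold is not reported here.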

Additional observations from a re-analysis of the deposited data

Results flagged for a closer look

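The control antibody IgG, which entered no comparison, was counted in 21 S0-medium cells (1.98%), with at most 1 count in a cell. This was noticed as a signal in data outside the main measurements. It was counted in 29 S0-low cells (1.91%) and 15 S1 cells (2.43%). Its tag is the nearest to the CD71 tag, and whether misread CD71 tags contributed was not tested.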

How the results depend on the processing

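No paired analysis was possible because each kind of library was made once. Of 759 alternative ratios of 69 named comparisons of a gene, 501 stayed within the counting interval, 252 moved outside it and 6 reversed. The 501 include every S1 over S0-medium ratio with S0-low cells limited by cKit, a setting that cannot change those ratios. Of those moved, 2 crossed 1 from an interval that spans 1, both for *Hesx1* in S1 over S0-medium (1.06), at 0.884 with the centered log ratio and 0.916 below 8000 UMIs. Without the named non-erythroid clusters *Ttr* (1.12), *Alb* (1.04), *Afp* (1.04), *Serpina6* (1.48) and *Serpina1b* (1.11) reversed in S0-medium over S0-low. In cells with at least 8000 UMIs *Hbb-y* reversed in S1 over S0-medium (0.992). Among the moves of over 1.5 times not given above were, in S0-medium over S0-low, *Hesx1* at 3.06 and *Ramp1* at 0.0577 in UMIs per cell. With the centered log ratio *Meg3* was at 0.174, *Prtn3* at 0.0813 and *Mpo* at 0.104. Without cells near a CD71 border *Meg3* moved the other way, from 0.0619 to 0.0324. In S1 over S0-medium such moves were *Kit* at 0.166 and *Hdac7* at 0.163 below 8000 UMIs and *Btg2* at 3.49 with the centered log ratio. Depth classes were added after seeing the data. Counts of genes moved as follows, in the order higher and lower in S0-medium than S0-low, higher and lower in S1 than S0-medium, and highest in S0-medium. A pseudocount of 1 CPM gave 157, 1245, 23, 109 and 20. Cells below 8000 UMIs gave 114 higher than S0-low, 12 and 53 for S1, and 5 highest. Cells of at least 8000 UMIs gave 22 higher in S1 and 0 highest. UMIs per cell gave 144 and 266, then 16 higher in S1 and 6 highest. Pooled CPM gave 38 higher than S0-low and 16 higher in S1. The centered log ratio gave 276 lower than S0-low, 33 and 18 for S1, and 2 highest. Leaving out cells near a CD71 border gave 23 and 19 for S1 and 3 highest. Thinning gave 10 higher in S1 and 4 highest. The number highest was 2 without globins in the denominator or without doublets. It was 0 without the named non-erythroid clusters or with S0-low cells limited by cKit. The causes were not tested, beyond fewer cells or another scale by construction. The cKit ratio of medians in S0-medium over S0-low was 0.850, and 0.363 below 8000 UMIs and 0.509 as a share. In S1 over S0-medium it was 0.422, and 0.237 as a share. The CD44 ratio was 1.21 and reversed to 0.906 in deep cells, 0.901 in shallow cells and 0.767 as a share, and in S1 over S0-medium it was 1.15 and reversed to 0.659 as a share. The centered log ratio setting scaled antibody counts, not RNA counts, and redrew the gates at the same sizes. Its S0-medium gate shared 704 of the 1058 cells.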
